A study of Arabidopsis thaliana with 24 samples.

Results

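Sperm nuclei of the single mutants ago5 and ago9 were set directly against each other by bisulfite sequencing, without the wild type as a go-between. Members are the samples labelled ago5 or ago9 and sperm, which are 4 of the 24 samples of the series. Both genotypes are in the Arabidopsis thaliana (thale cress) accession Col-0. Pollen came from plants 35 days after germination under 16 h of light and 8 h of dark, and 50000 nuclei were sorted per replicate. DNA of 1 to 5 ng per library went through a bisulfite kit for small inputs. The labels give 2 replicates to ago5 sperm and 2 to ago9 sperm, but name no allele, no insertion line and no history of backcrossing. The same comparison in stem-cell nuclei of the shoot apex, from 8 samples of ago5 and ago9 seedlings 7 days after germination, is set beside it. Those samples are 2 replicates per genotype, each listed in 2 runs. There 3000 to 4000 nuclei per replicate were picked by the mCherry fluorescent reporter. A line called ago59, whose label joins both mutant names, and the wild type wt21 are given beside single loci.

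ARGONAUTE (AGO) proteins carry small RNAs to matching nucleic acids. In RNA-directed DNA methylation, AGO4-clade proteins, to which AGO9 belongs, bring the methyltransferase DRM2 to transposons, where it methylates cytosines in all sequence contexts. AGO5 belongs to another clade and is known from reproductive tissue, and AGO9 is known from the ovule. CG methylation is copied at replication by MET1 and can pass through meiosis. CHG methylation (H is A, C or T) is kept mainly by CMT3 at chromatin marked by histone H3 lysine 9 methylation, and CHH methylation is set by CMT2 and by RNA-directed DNA methylation. Sperm nuclei of Arabidopsis are known for low CHH and well-kept CG and CHG methylation.

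The deposited table gives methylated and total cytosine calls per gene, pseudogene, transposable element and transposable element gene, with 1 pooled column per genotype, cell type and context. Whether the replicates were summed is not stated, so no difference can be set against a spread between replicates. A methylation level is the methylated share of the calls of a feature, and differences are ago5 minus ago9 in percentage points. Values after ± are 95% margins for counting error only, and calls on 1 read are not independent. Features with at least 10 calls in both pools were used. Over nuclear features the ago5 pool held 219786332 calls, or 5.62 per cytosine, and the ago9 pool held 228181856, or 5.83 per cytosine. Genes had like depth, with medians of 705 CG calls in ago5 and 719 in ago9. Transposable elements had less in ago5, with medians of 12 CG calls in ago5 and 16 in ago9 and of 89 CHH calls in ago5 and 115 in ago9. Chloroplast DNA, which is taken to be unmethylated, read 1.34% in CHH in ago5 sperm and 4.56% in ago9 sperm, with Wilson 95% intervals of 1.18 to 1.52% and 4.32 to 4.80%. It read 1.06% in ago59 and 1.37% in wt21 sperm. Chloroplast CG and CHG levels were also higher in ago9 sperm, at 3.34% and 3.72%, against 1.08% and 1.25% in ago5 sperm. Nuclear genes had mean CHH levels of 1.18% in ago5 and 1.19% in ago9. The chloroplast gap has the same direction as the mean differences by class given below, and whether it enters them was not tested. The table holds no expression values, so neither the mutations nor the sperm identity of the nuclei could be checked.

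Methylation outside CG was lower in ago5 sperm than in ago9 sperm at transposon sequences. The widest gap was in CHG at transposable element genes, the annotated genes inside transposons. Their mean CHG level was 46.7% in ago5 and 49.6% in ago9, a difference of -2.90 ± 0.150 points over 3760 genes, or -5.84% of the ago9 level. Of these genes 2871 were lower in ago5 and 883 were higher. Their mean CG level was the same to within counting error, at 90.5% in both pools and a difference of -0.0233 ± 0.0687 points. Taken over all calls of these genes together, the CG level was 86.4% in ago5 and 87.1% in ago9, a difference of -0.717 points.

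Transposable elements as annotated averaged 28.4% CHG in ago5 and 30.1% in ago9, a difference of -1.71 ± 0.142 points over 15631 elements. Their CHH level was 4.82% in ago5 and 5.15% in ago9 over 26814 elements, lower by 0.334 ± 0.0517 points. The median element differed far less than these means, with a CHG value of -0.448 and a CHH value of -0.0036 points. In CG they averaged 64.2% in ago5 and 64.6% in ago9, and the difference of -0.401 ± 0.106 points came with a median of 0. Pseudogenes were lower in ago5 in CHG by 1.19 ± 0.324 points. Genes differed by -0.226 ± 0.0253 points in CG, -0.161 ± 0.0261 in CHG and -0.0156 ± 0.00886 in CHH. The sign was negative in each class and context, and at transposable element genes and pseudogenes in CG the margin held 0.

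**Figure D1:**
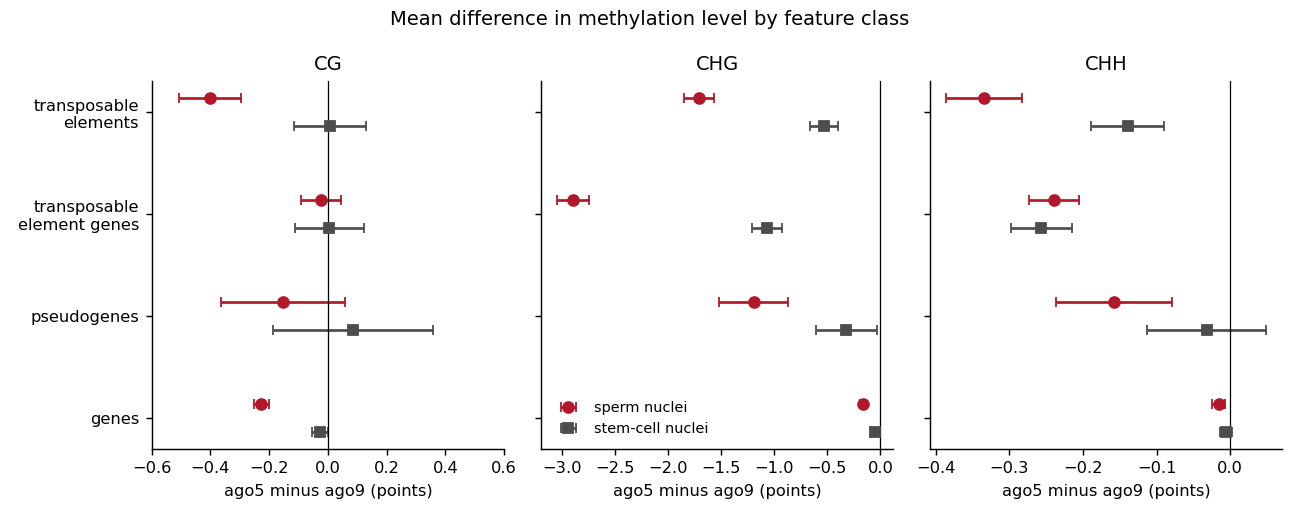
Mean difference in methylation level, ago5 minus ago9 in percentage points, for 4 feature classes (rows) in CG, CHG and CHH (panels, with different scales). Circles are sperm nuclei, squares stem-cell nuclei, and bars are 95% margins for counting error; transposable element genes in CHG stand at -2.90 points in sperm and -1.07 points in stem-cell nuclei.

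Set beside the same comparison in stem-cell nuclei, the CHG gap was wider in sperm. Transposable element genes differed by -1.07 ± 0.142 points in stem-cell nuclei, and over the 3757 genes covered in all 4 pools the sperm difference exceeded the stem-cell difference by -1.86 ± 0.204 points. For transposable elements this excess was -1.13 ± 0.190 points in CHG, -0.382 ± 0.156 points in CG and -0.200 ± 0.0680 points in CHH. The CHH difference at transposable element genes was -0.239 points in sperm and -0.235 points in stem-cell nuclei, an excess of -0.0046 ± 0.0519 points. Sperm and stem-cell pools differ in tissue, plant age, number of nuclei and depth together, and these cannot be told apart.

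The CHG gap was spread over the genome. Transposable element genes were lower in ago5 by 2.54 points on chromosome 1, 2.96 on chromosome 2, 3.02 on chromosome 3, 2.96 on chromosome 4 and 2.91 on chromosome 5. In windows of 1 Mb the mean CHG difference of transposable elements was below 0 in 100 of 120, and that of genes in 106 of 120. AGO5 lies on chromosome 2 and AGO9 on chromosome 5, and those chromosomes did not stand apart.

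Longer elements showed it more evenly. In CHG the mean difference was -1.02 points for elements up to 500 bp, -1.35 for over 500 to 1000 bp, -2.51 for over 1000 to 2000 bp, -3.33 for over 2000 to 4000 bp and -3.14 for those over 4000 bp. The ago9 level differed between these classes too, at 24.4% in the shortest and 52.2% in the longest. Relative to the ago9 level the differences were -4.19%, -5.60%, -7.02%, -7.48% and -6.02% in the same order. The share of elements lower in ago5 was 41.8% in the shortest class, where 2822 were lower, 2414 higher and 1511 equal. It was 88.0% in the longest class, where 1059 elements were lower and 144 higher. Short elements have few calls, many of them tied at equal levels, and the standard deviation of the element differences was 10.8 points in the shortest class and 3.60 in the longest. Of 1204 elements over 4000 bp, 1004 lay in the pericentromere, taken as within 3 Mb of a centromere.

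On the chromosome arms, where RNA-directed DNA methylation mostly acts, elements of middle length were lower in ago5 sperm in every context, and the CHH gap there was the widest of all length classes. Arm elements of over 2000 to 4000 bp averaged 6.74% CHH in ago5 and 8.36% in ago9, a difference of -1.63 ± 0.305 points over 318 elements, or -19.4% of the ago9 level. Their CG level was 62.2% in ago5 and 64.3% in ago9 (-2.06 ± 0.789 points), and their CHG level 28.1% in ago5 and 31.6% in ago9 (-3.50 ± 0.951 points). Arm elements of over 1000 to 2000 bp gave -1.38 points in CG, -1.90 in CHG and -1.14 in CHH. For arm elements of up to 500 bp the CHH difference was -0.313 points, and for pericentromeric elements of over 2000 to 4000 bp it was -0.434 points.

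In stem-cell nuclei the differences at arm elements of over 2000 to 4000 bp were 0.163 points in CG, 0.990 in CHG and 0.260 in CHH. In sperm, with at least 10 calls in all 4 genotypes, the 1538 arm elements of over 1000 to 4000 bp averaged 6.54% CHH in ago5, 7.78% in ago9, 6.93% in ago59 and 8.22% in wt21. Of these elements 903 were lower in ago5 and 629 higher, and the median element differed by -0.43 points, while 115 were lower by at least 10 points and 56 higher by as much. Depth moved with this result: the same elements had a median of 244 CHH calls in ago5 and 335 in ago9. Its part in the result was not tested.

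**Figure D2:**
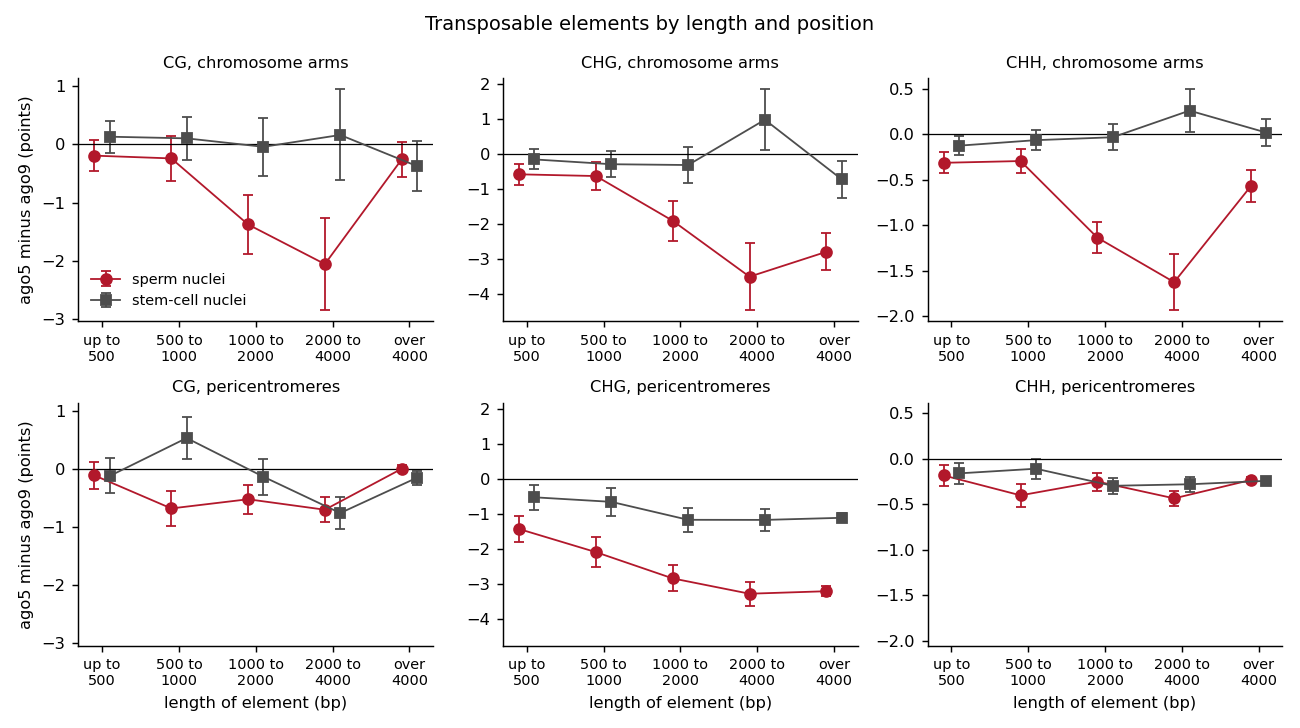
Mean difference of transposable elements, ago5 minus ago9 in percentage points, by length of the element in bp; the upper row holds elements of the chromosome arms, the lower row those within 3 Mb of a centromere, and the columns are the 3 contexts. Circles are sperm nuclei, squares stem-cell nuclei, bars 95% margins for counting error; arm elements of over 2000 to 4000 bp in sperm reach -2.06 points in CG, -3.50 in CHG and -1.63 in CHH.

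Single features were called different when the levels differed by at least 10 points and Fisher's exact test on the calls, adjusted by Benjamini-Hochberg over all nuclear features of that context, passed 0.05. The test compares the 2 pools and not the genotypes. In CG 723 of 53294 features were called (1.36%), 426 of them lower in ago5 (0.799%) and 297 higher (0.557%). In CHG 145 of 52476 were called (0.276%), 123 lower (0.234%) and 22 higher (0.0419%). In CHH 1051 of 64123 were called (1.64%), 538 lower (0.839%) and 513 higher (0.8%). A difference of 10 points alone was reached by 4.68% of features in CG, 7.75% in CHG and 3.93% in CHH.

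The classes differed by context. In CG the calls were 254 genes lower and 163 higher in ago5 (1.3% of genes), 146 and 105 transposable elements (1.53%) and 9 and 13 transposable element genes (0.585%). In CHG they were 56 transposable elements lower and 12 higher (0.435%), and 42 transposable element genes lower and 3 higher (1.2%). In CHH they were 507 transposable elements lower and 477 higher (3.67%), with 23 genes lower and 29 higher (0.16%). Only in CHG did calls in one direction outnumber those in the other by several times.

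Called CG genes were shorter and more often lay near centromeres than the genes tested. Their median length was 1179.5 bp where lower in ago5 and 936 bp where higher, against 1835 bp for all 32187 genes tested. Whether the call rule itself favours short genes was not tested. Pericentromeric genes were 22.8% of those lower and 20.2% of those higher, against 11.9% of all tested. Called CHG transposable elements lower in ago5 were pericentromeric in 83.9% of cases, against 58.4% of all tested.

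Features called in sperm CG were read again in the stem-cell pools, which took no part in the call. Of 718 with at least 10 calls there, 633 had the same sign, or 88.2%. For those lower in ago5 sperm 351 of 424 were lower in stem-cell nuclei too, where 44.8% of all features were, and 149 (35.1%) were lower by at least 10 points, against 3.76% of all. For those higher in ago5 sperm 282 of 294 were higher in stem-cell nuclei, against 43.5% of all, and 159 (54.1%) by at least 10 points, against 4.0% of all. Genes alone gave 376 of 417. The median difference was smaller in stem-cell nuclei, with 8.25 points in the direction of the sperm call against 17.2 points in sperm.

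In the other contexts the shares in stem-cell nuclei were smaller. In CHG 90 of 144 (62.5%) kept their sign, where 44.3% of all features were lower and 41.7% higher, and 19 differed by at least 10 points in the same direction, where 4.0% of all features were that much lower and 3.19% that much higher. In CHH 503 of 1039 (48.4%) kept their sign, near the shares of all features, of which 46.5% were lower and 46.3% higher in ago5 stem-cell nuclei. At least 10 points in the same direction were seen at 151 and in the opposite direction at 160, where 2.27% of all were that much lower and 2.01% that much higher. The difference in recurrence between contexts was not tested.

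**Figure D3:**
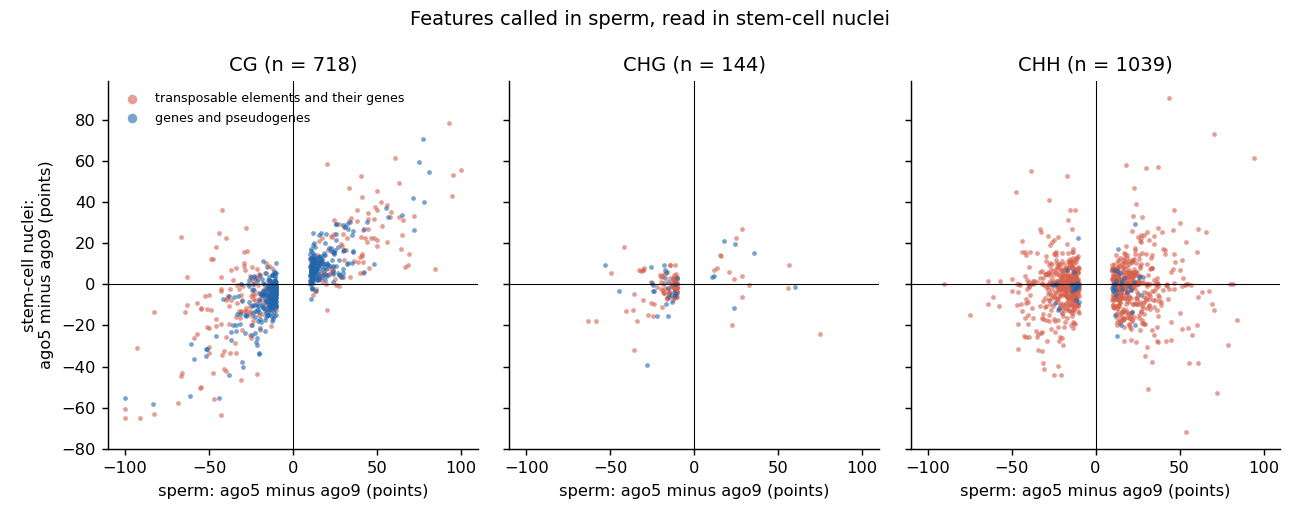
Each point is a feature called different between the ago5 and ago9 sperm pools, with its sperm difference on the horizontal axis and its difference in stem-cell nuclei on the vertical axis, both ago5 minus ago9 in percentage points. The empty band around 0 on the horizontal axis is the call rule of 10 points; CG points fall mainly in the lower left and upper right, 633 of 718, and CHH points lie on both sides of 0 alike.

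The widest CG gaps were at small loci, some with a level near 0% in one mutant. Differences scattered more among short elements, with a CG standard deviation of 8.93 points up to 500 bp and 1.56 over 4000 bp. The transposable element AT2TE06580 had 0% CG methylation in ago5 sperm (100 calls) and 100% in ago9 sperm (57 calls), with 76.6% in ago59 and 17.7% in wt21. In stem-cell nuclei it had 4.44% in ago5 and 65.2% in ago9. The transposable element AT2TE06200, nearby on chromosome 2, had 0% in ago5 sperm (152 calls) and 91.1% in ago9 sperm (123 calls), with 2.25% in ago59 and 1.52% in wt21. It was at 0% in ago5 stem-cell nuclei and 65.3% in ago9 stem-cell nuclei. Of the 4 sperm pools, only ago9 was methylated at AT2TE06200, while ago9 and ago59 were both high at AT2TE06580.

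In the opposite direction, AT3G05955, a long non-coding RNA gene, had 78.0% CG methylation in ago5 sperm (209 calls) and 2.74% in ago9 sperm (219 calls). It had 77.6% in ago59 and 80.7% in wt21, so ago9 alone was low. Stem-cell nuclei gave 60.3% in ago5 and 0.546% in ago9. AT1G06877, a small nuclear RNA gene of 124 bp, had 67.9% in ago5 sperm (53 calls) and 3.08% in ago9 sperm (65 calls), with 0% in both ago59 and wt21. There ago5 alone was high.

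Bases from the lowest coordinate of each of these 4 loci are printed below, to show how CG sites are placed in them. They are from the RefSeq TAIR10.1 assembly, plus strand. Capitals mark every CG, and the calls are summed per feature, so they do not tell the sites apart. The stretches are chr2:1431252-1431551, which is 300 of the bases of AT2TE06580, chr2:1359729-1360028 of AT2TE06200, chr3:11586005-11586304 of AT3G05955, whose gene runs on the minus strand, and chr1:12987190-12987313, which is the whole of AT1G06877.
AT2TE06580: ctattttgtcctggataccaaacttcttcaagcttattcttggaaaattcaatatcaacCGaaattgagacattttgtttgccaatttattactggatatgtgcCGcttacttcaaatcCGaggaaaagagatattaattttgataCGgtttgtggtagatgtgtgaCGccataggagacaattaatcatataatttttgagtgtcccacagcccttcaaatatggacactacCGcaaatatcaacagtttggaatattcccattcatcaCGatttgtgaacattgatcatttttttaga
AT2TE06200: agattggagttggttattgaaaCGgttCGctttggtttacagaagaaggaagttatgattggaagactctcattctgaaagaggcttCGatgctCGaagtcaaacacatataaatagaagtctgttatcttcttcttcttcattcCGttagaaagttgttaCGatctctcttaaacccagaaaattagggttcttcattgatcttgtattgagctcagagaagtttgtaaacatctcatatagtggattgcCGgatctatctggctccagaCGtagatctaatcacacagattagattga
AT3G05955: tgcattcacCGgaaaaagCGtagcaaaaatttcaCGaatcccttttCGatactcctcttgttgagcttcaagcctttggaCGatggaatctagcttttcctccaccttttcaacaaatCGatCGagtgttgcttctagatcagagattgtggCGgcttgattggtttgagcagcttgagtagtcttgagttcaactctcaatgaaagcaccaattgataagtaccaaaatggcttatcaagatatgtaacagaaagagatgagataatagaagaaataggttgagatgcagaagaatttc
AT1G06877: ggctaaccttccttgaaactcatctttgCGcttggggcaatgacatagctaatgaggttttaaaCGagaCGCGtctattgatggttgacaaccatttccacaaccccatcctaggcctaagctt
The stretch of AT2TE06580 holds 7 CG sites of the 8 in the element, that of AT2TE06200 holds 8 of 13, that of AT3G05955 8 of 12, and AT1G06877 has 4. A level of 100% or 0% at such a locus therefore rests on few CG sites.

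Most annotated features within 5 kb of these loci were not called in CG. Of all nuclear features only 1.36% were called in CG, so uncalled neighbours say nothing particular about these loci. Within 5 kb of AT2TE06580 the nearest annotated features differed by no more than 6.54 points in CG and none was called, and the nearby element AT2TE06620 had 96.8% in ago5 and 99.3% in ago9. Next to AT2TE06200, the abutting element AT2TE06205 was at 95.5% in ago5 and 100% in ago9, and the gene AT2G04090 beyond it had 16.0% in ago5 and 8.07% in ago9. Beside AT3G05955, the elements AT3TE48175 and AT3TE48180 were at 100% in ago5 and at 97.6% and 100% in ago9. Near AT1G06877 the gene AT1G35365 was also called, with 19.6% in ago5 and 1.81% in ago9, and the element AT1TE42345, not called, had 56.5% in ago5 and 66.7% in ago9.

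AT2TE06200 changed outside CG too. Its CHG level was 1.20% in ago5 sperm and 37.0% in ago9 sperm, and 1.75% in ago5 and 33.7% in ago9 stem-cell nuclei. Its CHH level stayed low, at 0.180% in ago5 sperm and 1.13% in ago9 sperm. AT3G05955 had 19.7% CHG in ago5 sperm and 2.26% in ago9 sperm.

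**Figure D4:**
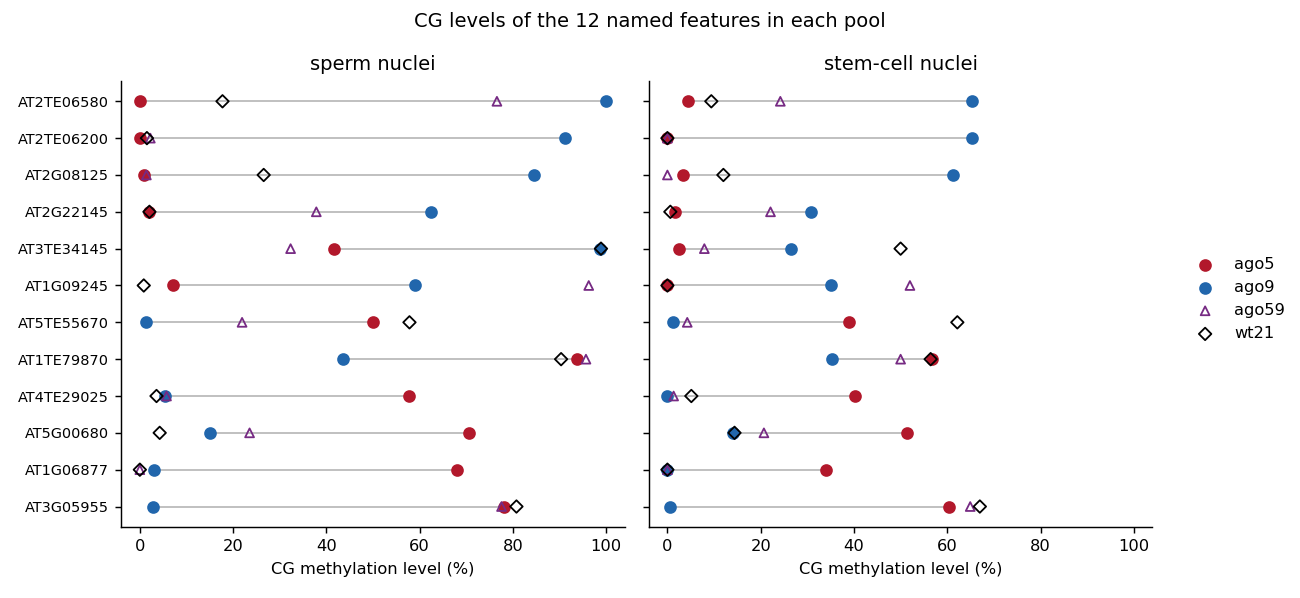
CG methylation level in percent of the 12 named CG features (rows, ordered by the sperm difference) in sperm nuclei (left) and stem-cell nuclei (right). Filled circles are ago5 and ago9, joined by a line, open triangles ago59 and open diamonds wt21; each of the 12 keeps its order of ago5 and ago9 in stem-cell nuclei.

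The remaining CG features with the widest gaps and at least 50 calls in both sperm pools fell on both sides of wt21. The non-coding gene AT2G08125 had 0.806% in ago5, 84.4% in ago9, 1.40% in ago59 and 26.6% in wt21 sperm. The protein-coding gene AT2G22145 had 1.86% in ago5, 62.4% in ago9, 37.8% in ago59 and 2.05% in wt21. AT1G09245, also protein-coding, had 7.14% in ago5, 58.9% in ago9, 96.2% in ago59 and 0.840% in wt21. These 3 genes were low in ago5 and high in ago9, and in 2 of them wt21 was low as well.

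Higher in ago5 were AT5G00680, an RNA gene, with 70.5% in ago5 and 15.0% in ago9, and the element AT4TE29025, with 57.7% in ago5 and 5.36% in ago9. At both loci wt21 was at 4.26% and 3.57%, nearer ago9. AT1TE79870 had 93.7% in ago5 and 43.5% in ago9, and AT5TE55670 had 50% in ago5 and 1.35% in ago9. At those elements wt21 was at 90.3% and 57.8%, nearer ago5. Lower in ago5 was AT3TE34145, with 41.7% in ago5, 98.6% in ago9, 32.3% in ago59 and 98.9% in wt21.

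The CHG loci with the widest gaps were mostly pericentromeric. AT3G22955, a transposable element gene over the same stretch as AT3TE34145, had 1.03% CHG in ago5 sperm (97 calls) and 59.6% in ago9 sperm (52 calls), with 9.46% in ago59 and 41.0% in wt21. Its stem-cell levels were 3.15% in ago5 and 21.2% in ago9. In both CG and CHG the locus was lower in ago5 and ago59 than in ago9 and wt21. The transposable element gene AT5G29026 went the other way, with 51.7% in ago5 sperm (416 calls) and 23.2% in ago9 sperm (419 calls), and 50.4% in ago59 and 53.5% in wt21. Stem-cell nuclei had 47.1% in ago5 and 20.3% in ago9, so ago9 alone was low in both cell types.

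The gene of the microRNA MIR396a, AT2G10606, had 8.77% CHG in ago5 sperm (114 calls) and 37.1% in ago9 sperm (89 calls), with 1.09% in ago59 and 3.70% in wt21. MiR396 is known to restrain growth-regulating factor genes. Its CG level was 36.8% in ago5 and 88.6% in ago9, on 38 and 35 calls. Stem-cell nuclei had 12.7% CHG in ago5 and 52.2% in ago9, so ago9 was the highest of the genotypes in both cell types.

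Other CHG gaps were smaller or of opposite sign in stem-cell nuclei. AT4G09775 had 34.4% in ago5 and 59.5% in ago9 sperm, and 34.9% in ago5 and 34.1% in ago9 stem-cell nuclei. The elements AT5TE37530, with 42.6% in ago5 and 14.1% in ago9 sperm, and AT4TE20760, with 47.5% in ago5 and 19.1% in ago9 sperm, differed by -6.20 and 4.06 points in stem-cell nuclei. AT2G11005 had 56.3% in ago5 and 32.8% in ago9 sperm, and 22.3% in ago5 and 34.0% in ago9 stem-cell nuclei. The non-coding gene AT2G06505, with 52.8% in ago5 and 17.5% in ago9 sperm, and the pseudogene AT3G43251, with 41.5% in ago5 and 17.2% in ago9 sperm, kept their direction, at 15.4 and 19.5 points in stem-cell nuclei.

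AT2G07633 and AT2G07767 lie in the part of chromosome 2 that is known to carry an insertion of mitochondrial DNA, so reads of either genome may be counted there. AT2G07633 had 37.4% CHG in ago5 and 63.1% in ago9 sperm, and AT2G07767 had 28.6% in ago5 and 64.2% in ago9 sperm. AT2G07633 had 123 CHG calls in ago5 and 103 in ago9 sperm, but 835 in ago5 and 740 in ago9 stem-cell nuclei. Both loci are uncertain for that reason.

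The 12 CHH loci with the widest gaps were short features of 118 to 406 bp. Short elements also scatter more, with a CHH standard deviation of differences of 7.70 points up to 500 bp and 1.22 over 4000 bp. The element AT2TE57840 of 118 bp had 1.89% CHH in ago5 sperm and 48.0% in ago9 sperm, and 10.5% in ago5 and 29.6% in ago9 stem-cell nuclei. AT5TE44665 had 4.11% in ago5 and 49.3% in ago9 sperm, but 5.56% in ago5 and 5.68% in ago9 stem-cell nuclei. AT2TE10450 had 0% in ago5 (55 calls) and 41.8% in ago9 sperm (67 calls). AT2TE21975 had 71.7% in ago5 (99 calls) and 4.17% in ago9 sperm (72 calls), with 56.8% in ago59 and 77.5% in wt21. Its stem-cell levels were 25.4% in ago5 and 28.8% in ago9. The transposable element gene AT2G13142 overlaps it and shares its calls. AT2TE22390 had 56.9% in ago5 (51 calls) and 0% in ago9 sperm (70 calls). AT3TE45100 had 55.6% in ago5 (54 calls) and 0% in ago9 sperm (59 calls). The reference holds 29 CHH cytosines in AT2TE57840, 32 in AT5TE44665, 51 in AT2TE10450, 91 in AT2TE21975, 58 in AT2TE22390 and 72 in AT3TE45100. The levels of all these elements may rest on few reads.

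Among genes, AT3G08520 had 1.44% CHH in ago5 and 26.7% in ago9 sperm, and AT5G03635 had 1.45% in ago5 and 25.4% in ago9. AT3G44140 had 41.4% in ago5 (169 calls) and 64.3% in ago9 (112 calls). It has 108 CHH cytosines in the reference, so its levels may rest on few reads too. Higher in ago5 were AT1G55710, with 29.0% in ago5 and 0.948% in ago9, AT2G03885, with 28.3% in ago5 and 0.955% in ago9, and AT5G09425, with 38.0% in ago5 and 11.9% in ago9. Of these 6 genes AT5G03635 alone differed by more than 9 points in stem-cell nuclei, at -9.13.

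Setting wt21 beside the called CG features showed departures in both mutants and in both directions. Of 721 features with wt21 calls, wt21 was nearer ago5 at 406 and nearer ago9 at 315. Where wt21 was within 10 points of ago9 only, ago5 was the lower at 84 features and the higher at 110. Where wt21 was within 10 points of ago5 only, ago9 was the lower at 96 and the higher at 164. In CHG, where 123 calls were lower and 22 higher in ago5, wt21 was nearer ago5 at 49 features and nearer ago9 at 95. With wt21 within 10 points of ago9 only, ago5 was the lower at 45 and the higher at 4. With wt21 within 10 points of ago5 only, ago9 was the lower at 11 and the higher at 22. The remaining features, 267 in CG and 62 in CHG, had wt21 within 10 points of neither mutant or of both. In CHH wt21 was nearer ago5 at 441 of 1046 features and nearer ago9 at 605. With 1 pool per genotype, a mutation and the history of the plants pooled cannot be told apart.

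In CG the line ago59 resembled ago5 on the chromosome that carries AGO5 and ago9 on the chromosome that carries AGO9. AGO5 (AT2G27880) is at chr2:11871378-11876989 and AGO9 (AT5G21150) at chr5:7192239-7198381. On chromosome 2 the ago59 CG level was nearer ago5 than ago9 at 129 of 182 features called between the single mutants (70.9%). On chromosome 5 it was nearer ago5 at 32 of 162 (19.8%). On the other chromosomes the count nearer ago5 was 78 of 170 on chromosome 1, 58 of 124 on chromosome 3 and 29 of 82 on chromosome 4.

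In CG ago59 was nearer ago5 at 31 and nearer ago9 at 17 within 3 Mb of AGO5. Within 3 Mb of AGO9 it was nearer ago5 at 4 and nearer ago9 at 32. The bias was not limited to those windows, since beyond 3 Mb it was nearer ago5 at 98 and nearer ago9 at 36 on chromosome 2, and nearer ago5 at 28 and nearer ago9 at 98 on chromosome 5. Stem-cell nuclei gave 137 of 182 nearer ago5 on chromosome 2 and 57 of 162 on chromosome 5. The other chromosomes had 89 of 171 on chromosome 1, 54 of 120 on chromosome 3 and 32 of 80 on chromosome 4 there. In sperm CHG no such split appeared, with 24 of 35 nearer ago5 on chromosome 2 and 22 of 33 on chromosome 5. Nor did it in sperm CHH, with 95 of 209 nearer ago5 on chromosome 2 and 94 of 225 on chromosome 5. Within 3 Mb of AGO5 49 of 2498 features were called in CG (2.0%), a larger share than the 1.36% of all. Within 3 Mb of AGO9 36 of 2535 were called (1.42%), near the share of all. The shares within 2 Mb were 1.79% for AGO5 and 1.38% for AGO9. Whether the share near AGO5 exceeds that of all features by more than scatter was not tested. Within 1 Mb the shares were 1.60% for AGO5 and 0.787% for AGO9.

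**Figure D5:**
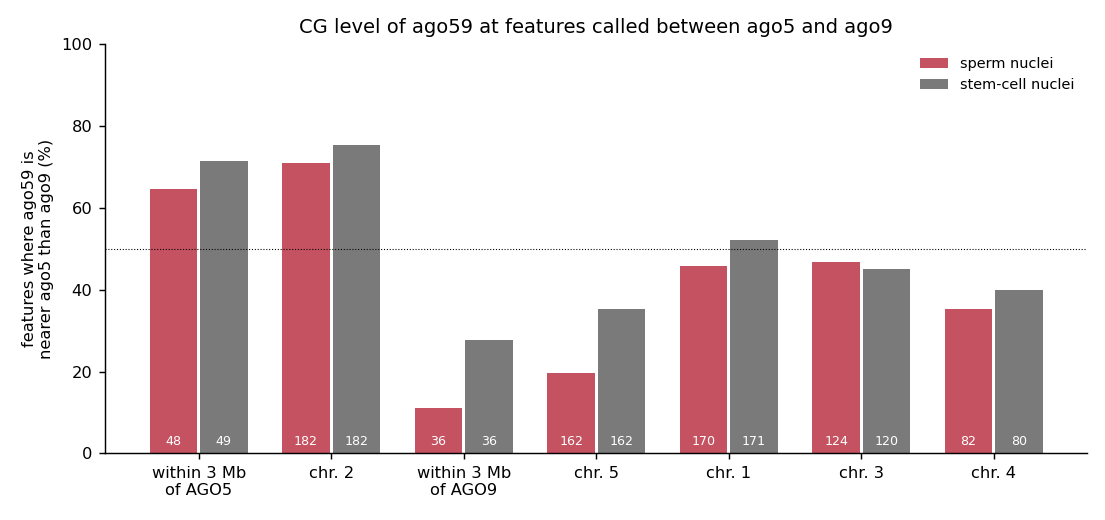
Share in percent of CG features called between ago5 and ago9 sperm at which the level of ago59 is nearer ago5 than ago9, by region; left bars are sperm nuclei, right bars stem-cell nuclei, the white numbers are the features in each bar and the dotted line is 50%. In sperm the share is 70.9% on chromosome 2 and 19.8% on chromosome 5.

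Genes of the methylation machinery and well-known silenced loci were grouped in lists by role. The lists hold 9 ARGONAUTE genes, 5 methyltransferases, 4 demethylases, 12 genes of RNA-directed DNA methylation, 5 of heterochromatin maintenance, 12 methylation-silenced loci and 4 sperm-cell genes. In each list 0 were called in CG, CHG or CHH, where 1.3% of all genes were called in CG, 0.0839% in CHG and 0.16% in CHH. At those shares lists of this size would hold few or no calls, so the count of 0 says nothing particular about them. Median CG differences were -0.328 points for the ARGONAUTE genes, 0.203 for RNA-directed DNA methylation and 1.98 for the demethylases, against -0.0283 for all genes.

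AGO5 itself had 4.14% CG methylation in ago5 and 2.00% in ago9, and 2.29% CHG in ago5 and 0.913% in ago9. AGO9 had 0.709% CHH in ago5 and 1.28% in ago9. ROS1, which encodes a DNA demethylase, had 29.1% CG in ago5 and 23.6% in ago9, a difference of 5.52 ± 2.48 points. SHH1, which recruits RNA polymerase IV, had 24.7% in ago5 and 32.4% in ago9 (-7.73 ± 4.81 points), and differed by -9.02 points in stem-cell nuclei. SDC, a gene silenced through tandem repeats in its promoter, had 0.694% CHH in ago5, 3.01% in ago9, 2.51% in ago59 and 2.97% in wt21, so ago5 alone was low. FWA, silenced in the same way, had 21.1% CG in ago5 and 18.1% in ago9, which differ by less than the counting margin of 3.42 points. ROS1 had the highest CG difference of its list and SHH1 the lowest CG difference of its own. SDC had the lowest CHH difference of the methylation-silenced loci. These are the extremes of their lists, and none of them was called.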

How the data were processed

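Bisulfite libraries of 8 groups were analysed, with 2 sperm samples for ago5 and 2 for ago9. Trim Galore, Bismark, bedtools 2.30.0 and the build TAIR10 are listed, with no roles, in the submitters' processing notes. The authors deposited whole-number counts of methylated and total cytosine calls per feature, genotype and context, per the file headers, with 1 column for each group; how replicates and runs were combined is not given in the sources used here. All 48 columns of calls were read, and the 24 other numeric columns, of ready-made levels, were not used. The labels list the molecule as RNA although their protocol extracts DNA. A locus tag of the RefSeq TAIR10.1 annotation was found for 37803 of the 68992 nuclear features, and 37799 of these have its start and end. Features can overlap, and their calls then count in each.

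The level of a feature was methylated over total calls, at least 10 calls being required in both pools. Means were unweighted, with 95% margins from binomial variances. No replicate test could be made, because each group has 1 column. Fisher's exact test with Benjamini-Hochberg adjustment at 0.05 and a difference of 10 points defined calls. Named features were the 3 widest called gaps per direction, context and kind of feature with at least 50 calls in both sperm pools. Neighbours of named loci, elements by length and the comparison with ago59 were chosen after values were seen, and all members and lists were chosen with earlier results of these data known. Alternatives were other minimums of calls, medians, levels over calls, other call rules, centring both pools on their median logit level (offset 0.01), and elements without overlap. The scripts were tested on simulated data. Python 3.11.15, numpy 2.4.6, scipy 1.17.1 and pandas 2.3.3 were used. The intervals cover counting error only. Transposable element families were not used here.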

Additional observations from a re-analysis of the deposited data

Results flagged for a closer look

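At 3 named loci the sign of the difference between ago5 and ago9 was opposite in the 2 cell types and the stem-cell difference was larger than its counting margin; the change of sign itself was not tested. At AT4G09775, AT2G11005 and AT5TE37530 in CHG and at AT2TE10450, AT2TE21975 and AT2TE22390 in CHH the sign was also opposite, with stem-cell differences inside the counting margin. AT2G07633, in the stretch of chromosome 2 with mitochondrial DNA, was lower in ago5 sperm in CHG and higher by 8.60 points in ago5 stem-cell nuclei. AT2G03885 was higher in ago5 sperm in CHH and differed by -5.38 points in stem-cell nuclei. AT3TE45100 was higher in ago5 sperm in CHH by 55.6 points and differed by -38.5 points in stem-cell nuclei, where it had 1.79% in ago5 and 40.3% in ago9.

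Chloroplast features in all contexts and mitochondrial features in CHH, which no comparison above used as a result, read higher in the ago9 sperm pool than in wt21 sperm. The chloroplast CG level was 1.08% in ago5 sperm and 3.34% in ago9 sperm, the CHG level 1.25% in ago5 and 3.72% in ago9, and the CHH level 1.34% in ago5 and 4.56% in ago9. The mitochondrial CHH level was 2.21% in ago5 sperm, 4.39% in ago9 sperm, 2.14% in ago59 sperm and 2.32% in wt21 sperm. In CG and CHG the mitochondrial level was lower in ago9 than in wt21 sperm, at 90.6% in ago9 and 92.4% in wt21 in CG and 48.0% in ago9 and 49.1% in wt21 in CHG. In stem-cell nuclei the mitochondrial CG level was only 8.7% in ago9 and 9.8% in wt21. The ago9 pools held 16936 mitochondrial CG calls in sperm and 110981 in stem-cell nuclei. Whether reads of the mitochondrial insertion on chromosome 2 enter these levels was not tested.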

How the results depend on the processing

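No mean difference changed sign under the alternatives run, but the balance of called CHH elements turned, with 507 lower and 477 higher in ago5 as reported, 201 and 231 at 20 points, and 479 lower, fewer than those higher, when centred on the median. Taken as the median over features, the sperm difference between ago5 and ago9 was 0 for transposable elements in CG, -0.448 points in CHG and -0.00363 in CHH, and -0.0283 for genes in CG and -0.00993 in CHG; the excess over stem-cell nuclei was 0, -0.114 and -0.000173 for the elements, and -0.0415 and -0.0154 for the genes. Over calls, the elements gave -0.801 in CG and -2.75 in CHG and the genes -0.453 and -0.118, with excesses over stem-cell nuclei of -1.27 and -2.23 for the elements and -0.506 for genes in CG. With at least 20 calls the element CHG difference was -1.90 and its excess -1.38. Elements without overlap gave -1.47 in CHG and -0.402 in CHH. The median element therefore moved far less than the mean.

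By size alone, the counts lower and higher in ago5 were 1020 and 730 elements and 392 and 274 genes in CG, 2028 and 1201 elements and 282 and 128 genes in CHG, and 1308 and 1099 elements and 41 and 45 genes in CHH. At 20 points with Fisher's exact test they were 58 and 49 genes in CG, 7 and 3 genes in CHG, 7 and 8 genes in CHH, and 18 elements lower in CHG. Centred on the median, 36 elements were lower in CHG. Windows of 2, 3 and 5 Mb around AGO5 and AGO9, chosen after seeing the data, kept the nearer mutant of ago59 in CG. No paired analysis was possible because the table has 1 column per group, and for the same reason no replicate could be left out. Depth limits calls at transposable elements, whose median was 12 CG calls in ago5 and 16 in ago9.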

Other observations

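The window of 1 Mb with the highest share of called CG features was the one from 1 to 2 Mb on chromosome 2, with 26 of 613 (4.24%), 19 lower and 7 higher in ago5. It holds AT2TE06580 and AT2TE06200.

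Total calls were far apart at 2 of the 49953 nuclear features with at least 200 calls in one of the pools, where ago5 and ago9 differed by more than 8-fold after scaling to depth. AT1TE39805 had 30 calls in ago5 sperm, 274 in ago9, 233 in ago59 and 191 in wt21. AT3TE46555 had 17 in ago5 sperm, 224 in ago9, 105 in ago59 and 197 in wt21. In stem-cell nuclei AT1TE39805 had 147 calls in ago5 and 124 in ago9, and AT3TE46555 had 93 in ago5 and 102 in ago9.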
